A study of Homo sapiens with 18 samples.

Results

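Interferon-stimulated genes are the genes that a cell turns on when it senses virus or is exposed to interferon. Levels of 9 of them were followed in IMR90 cells: IFIT1, IFIT2, IFIT3, ISG15, MX1, OAS1, IFI6, IRF1 and IRF7. They were chosen by name as known genes of this response, with earlier results of these data known, from the 56269 genes measured. IMR90 is a human lung fibroblast line. Before any stress, they received for 6 h either PBS alone or hyaluronan (HA) made by naked mole-rat skin fibroblasts, at 20 μg/ml, left intact (cNSF-HA) or partly cut to shorter polymers (fNSF-HA). The cNSF-HA had been mixed with heat-inactivated hyaluronidase, and the fNSF-HA had been cut with low amounts of the same enzyme before it was inactivated by heat. RNA was sequenced directly after the pre-incubation (the groups without tBHP), or after the medium had been changed and the cells exposed for 1 h to 200 μM tert-butyl hydroperoxide (tBHP), an oxidant. The exposed cells were collected 6 h after the start of tBHP. Each of the 6 groups had 3 replicates, which gave 18 libraries. The authors call all their replicates biological. Nothing in the labels says whether the replicates were separate cultures, so p-values measure the spread between these libraries. No untreated cells of the later time were included, so tBHP, the change of medium and the later collection cannot be told apart. All groups are of 1 cell line.

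In the known pathway, interferon binds its receptors and, through the kinases JAK1, TYK2 and JAK2, activates transcription factors of the STAT family. STAT2 and IRF9 are parts of a complex that binds the interferon-stimulated response element (ISRE), whereas the gamma-activated sequence (GAS) is bound by STAT dimers. The products of IFIT1, IFIT2 and IFIT3 bind RNA or each other and restrict viral translation, ISG15 encodes a ubiquitin-like modifier, MX1 a GTPase that blocks viral replication, OAS1 an enzyme that senses double-stranded RNA, and IFI6 a small membrane protein. IRF1 and IRF7 are transcription factors that act upstream of and within the response, and IRF1 is also known to respond to signals other than interferon.

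Promoters of 7 of the 9 members were found in RefSeq (GRCh38.p14, 250 bases before to 50 after the start), and IFIT2 and IRF7 had no entry. An ISRE-type motif, GAAA followed by any 2 bases and again GAAA, on either strand, was present in 5 of the 7 (ISG15, IFI6, IFIT1, IFIT3 and MX1). Some members have several starts, and counted by promoter it was present in 7 of the 10 of these members, against 3.57% of the 35116 promoters of this table. The GAS-type motif TTCNNNGAA, which reads the same on both strands, was present in 3 members (IRF1, OAS1 and MX1) and 3 of the 10 promoters, and in 7.66% of all promoters. The sequences upstream of 5 members are shown because these genes did not move alike in the results. Motif matches are in capitals, sequences run 5′ to 3′ on the strand of the gene, and a match is no proof of binding. 2 matches overlap in ISG15. They lie at chr1:1013376-1013407 (ISG15, plus strand), chr1:27672268-27672356 (IFI6, minus strand), chr10:89392499-89392537 (IFIT1, plus strand), chr10:89327833-89327892 (IFIT3, plus strand) and chr5:132490881-132490905 (IRF1, minus strand).
ISG15: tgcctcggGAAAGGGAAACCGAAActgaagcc
IFI6: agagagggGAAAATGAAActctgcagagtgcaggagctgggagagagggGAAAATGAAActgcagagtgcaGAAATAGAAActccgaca
IFIT1: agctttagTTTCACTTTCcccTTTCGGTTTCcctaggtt
IFIT3: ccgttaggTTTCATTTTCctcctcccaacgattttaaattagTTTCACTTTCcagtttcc
IRF1: agcctgatTTCCCCGAAatgacggc

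Levels are normalized counts, which are read numbers per gene scaled by the library's size factor. Each library held 20261103 to 26287660 reads on genes. Differences were tested with limma on log2(normalized count + 1), with Benjamini-Hochberg adjustment over the 13686 genes with a mean of at least 10, and a gene is said to rise or fall where its adjusted p was under 0.05. This scale understates changes of genes with low counts. The fibroblast markers were all measured, from a mean of 412 for LUM to 569791 for FN1. The defining markers of other cell types were at or near 0, with means of 0.542 for PTPRC, 2.69 for EPCAM, 0.0633 for PECAM1 and 0 for CDH5. A few genes from the marker lists of other cell types were nevertheless measured, with means of 46.1 for CSF1R, 1294 for CLDN4, 447 for TIE1, 1131 for TEK and 13.0 for VWF. CSF1R rose after tBHP by a log2 difference of 0.97 to 1.12, and the summed leukocyte markers went from 28.4 to 43.0 per library without tBHP to 55.3 to 97.6 after it. Their part in the responses to tBHP was not tested. CDKN1A, a p53 target used as a check of the exposure, rose by a log2 difference of 2.97 to 3.06 after tBHP in the 3 pre-incubations. Replicates lay further apart in the tBHP groups (median SD of 0.206 on the log2 scale) than in the others (0.0761).

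Of the 9 members, 8 passed the filter on low values. OAS1 did not: 1 read was counted on it in cNSF-HA cells after tBHP and none in the other 17 libraries, and a count of 0 allows up to 3 reads in a library. The other members were of low to moderate abundance, each lower in mean level than most of the genes tested. On the scale of normalized count per kb of exon in PBS cells, ISG15 stood highest at 160.3 ± 13.5 (SD, n = 3). It was followed by IFI6 at 87.5 ± 12.2, IFIT3 at 31.6 ± 4.0 and IRF1 at 26.6 ± 0.579. IFIT1 stood at 8.20 ± 1.09 and IRF7 at 7.26 ± 0.931, IFIT2 at 4.48 ± 0.939 and MX1 lowest at 1.65 ± 0.326. The exon length counts the bases of all annotated transcripts, 7799 for IRF1 and 8616 for MX1. Their longest transcripts have 5153 and 3470 bases, and the order of neighbouring genes depends on the length used. Fewer expressing cells and less RNA per cell cannot be told apart in these bulk samples. Single libraries held 6 to 23 reads of MX1, 7 to 64 of IRF7, 12 to 46 of IFIT1 and 15 to 42 of IFIT2, which limits the precision of their values.

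**Figure D1:**
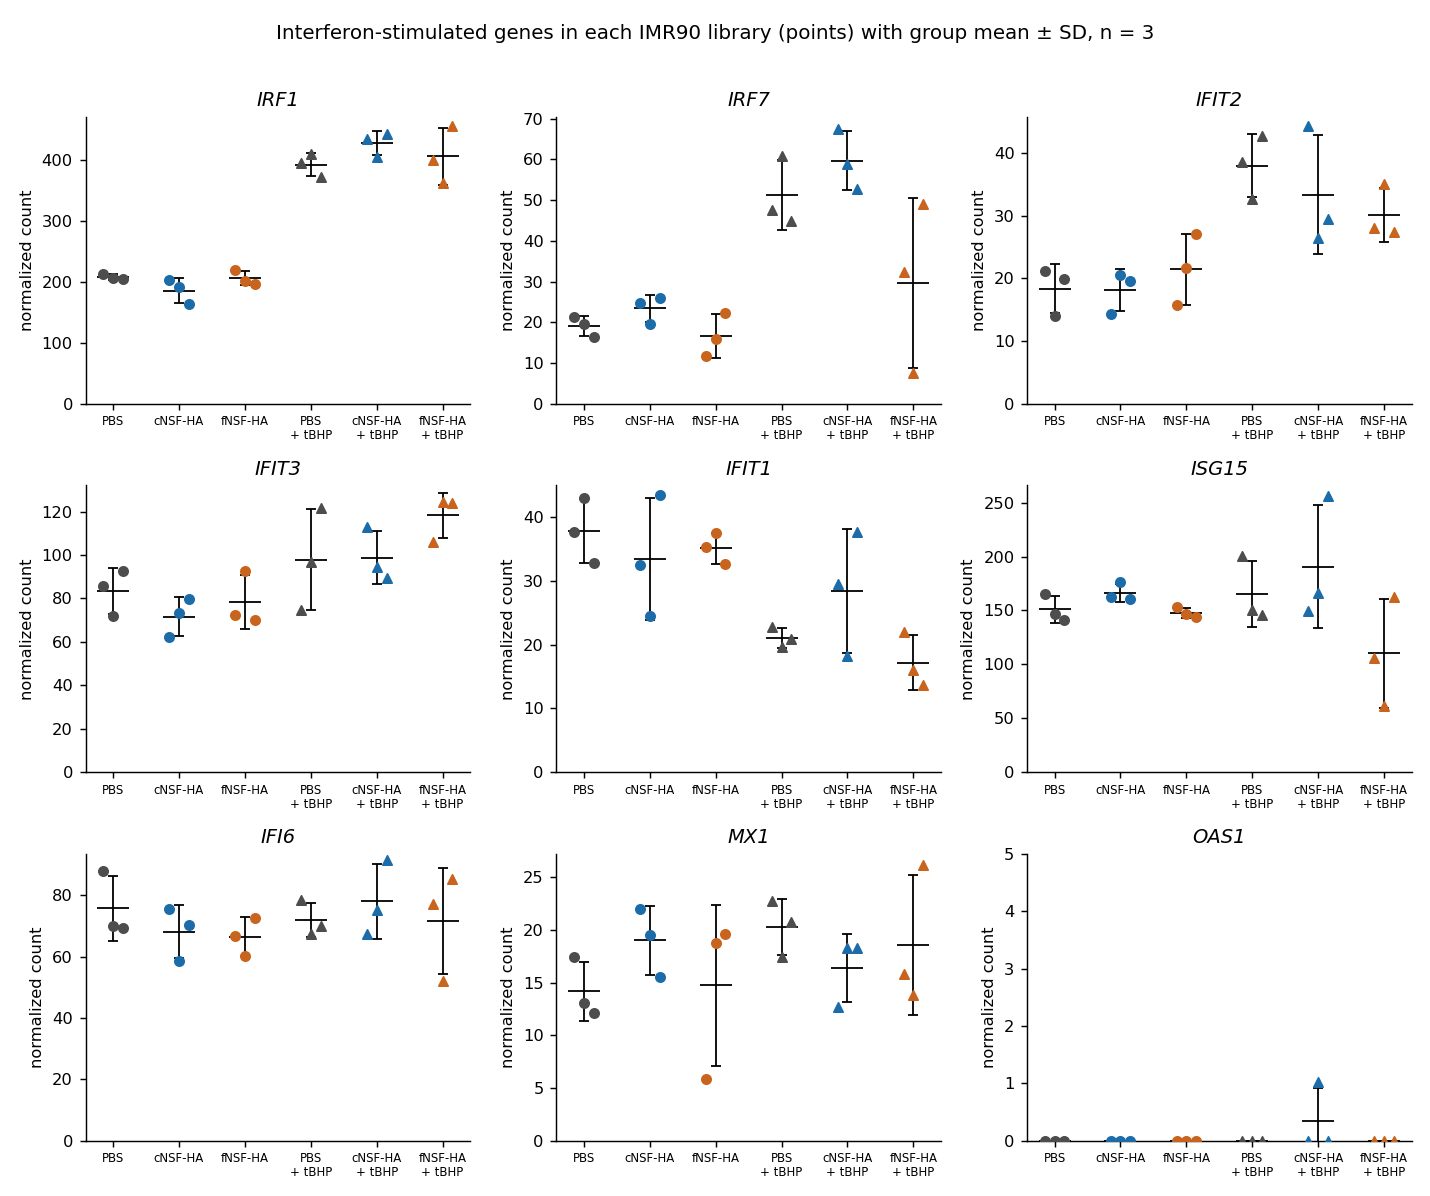
Normalized counts (linear y axis from 0, a scale per panel) of the 9 members in the 6 groups on the x axis. Circles are libraries without tBHP, triangles libraries after tBHP, and bars the mean ± SD of 3 replicates; IRF1 separates the 2 states completely, while OAS1 is at 0 in all libraries but one.

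The question of the first comparisons was how the members responded to tBHP in cells of each pre-incubation. IRF1 rose in all 3, IRF7 and IFIT2 rose in PBS and cNSF-HA cells, IFIT3 rose in cNSF-HA and fNSF-HA cells, and IFIT1 fell in PBS and fNSF-HA cells. ISG15, IFI6 and MX1 passed the test in none. Thus 3 members rose and 1 fell after PBS, 4 rose after cNSF-HA with none falling, and 2 rose against 1 that fell after fNSF-HA. Among all the genes in the test the share that rose was 24.2% under PBS, 24% under cNSF-HA and 19.2% under fNSF-HA, and the share that fell was 26.9%, 26.8% and 22.7%. The 4, 4 and 3 of 8 members thus stand beside a background of 51.1%, 50.8% and 41.9% called in either direction, and are near it. The median log2 difference of the 8 members was 0.35, 0.32 and 0.46, against 0.0043, -0.00053 and -0.034 for all genes tested.

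IRF1 (ENSG00000125347, chr5:132481609-132490798, minus strand, build GRCh38) was the member with the most reads and the steadiest response. Its normalized counts were 212, 205 and 204 in PBS cells and 394, 409 and 372 after tBHP. In cNSF-HA cells they were 202, 191 and 163, against 434, 405 and 442 after tBHP. In fNSF-HA cells they were 219, 201 and 197, against 399, 362 and 456 after tBHP. All 9 libraries after tBHP lay above all 9 without it, so the groups did not overlap. Between the states, 3 libraries against 3 did not overlap for 63.8%, 63.7% and 48.7% of all genes with PBS, cNSF-HA and fNSF-HA. These shares are the background for every member, and the share for 9 against 9 was not taken. The log2 differences after PBS, cNSF-HA and fNSF-HA were 0.91 ± 0.10 (SE), 1.20 and 0.97 with the same SE, with limma adjusted p-values of 8.29e-07, 3.2e-08 and 4.87e-07. The groups ordered from cNSF-HA to fNSF-HA to PBS after tBHP, with overlapping libraries between neighbours, and a gap separated these from the 3 groups without tBHP. Exons of C5orf56 on the opposite strand cover 22% of the IRF1 exon bases, and since the kit does not mark strand the reads there could belong to either gene. C5orf56 had a mean normalized count of 20.2, against 304 for IRF1.

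IRF7 (ENSG00000185507, chr11:612553-615999, minus strand), the master regulator of type I interferon production, had the largest fold among the members in PBS and cNSF-HA cells. The libraries of PBS cells held 21.2, 19.6 and 16.4 normalized counts, and 47.7, 61.0 and 44.9 after tBHP. Those of cNSF-HA cells held 24.8, 19.5 and 25.8, and 67.5, 58.8 and 52.9 after tBHP. These groups did not overlap, and the rise was 2.59-fold in PBS cells (log2 difference 1.37, SE 0.43, limma adjusted p = 0.0128) and 2.49-fold in cNSF-HA cells (1.32, adjusted p = 0.0162). In fNSF-HA cells the values were 11.8, 15.8 and 22.4 without tBHP and 32.4, 7.45 and 49.0 after it. Replicate 2 after tBHP, with 7 reads (exact Poisson 95% interval 2.81 to 14.4, counting error only), lay below every other library, and the groups overlapped. The log2 difference was 0.50 (SE 0.43, adjusted p = 0.378). Without that library it was 1.26 and passed the test (adjusted p = 0.000625), and without replicate 3 it was -0.03. In cNSF-HA cells the call was lost without replicate 1 after tBHP (1.23, adjusted p = 0.0506) or without replicate 2 before it (1.20, adjusted p = 0.0578).

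IFIT2, IFIT3 and IFIT1 lie in this order on the plus strand of chromosome 10, between chr10:89283694-89309276 (IFIT2), chr10:89327894-89340971 (IFIT3) and chr10:89392546-89406486 (IFIT1), and are related genes that interferon is known to induce together. They did not move together after tBHP. For IFIT2 the libraries held 21.2, 14.0 and 19.9 normalized counts in PBS cells and 38.6, 32.7 and 42.7 after tBHP. The cNSF-HA cells held 14.3, 20.5 and 19.6, and 44.3, 26.4 and 29.5 after tBHP. The fNSF-HA cells held 15.7, 21.7 and 27.0, and 28.1, 35.1 and 27.3 after tBHP. IFIT2 libraries after tBHP were higher in every pre-incubation with no overlap, by a narrow margin in fNSF-HA cells. Libraries of 63.8%, 63.7% and 48.7% of all genes did not overlap between the states with PBS, cNSF-HA and fNSF-HA, which is also the background for the other members. Its log2 difference was 1.02 after PBS (SE 0.25, limma adjusted p = 0.00284), 0.82 after cNSF-HA (adjusted p = 0.0119) and 0.50 after fNSF-HA, where it missed the threshold (adjusted p = 0.13). The call in cNSF-HA cells was lost without replicate 1 after tBHP (0.61, adjusted p = 0.0722) or without replicate 1 before it (0.67, adjusted p = 0.0603). Of the IFIT2 exon bases, 65 are shared with LIPA on the opposite strand, which had a mean normalized count of 423 against 26.6 for IFIT2, and 356 with AL353751.1 on the same strand, so reads there could belong to either gene.

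IFIT3, which stabilizes the binding of IFIT1 to RNA, held 85.9, 71.8 and 92.5 normalized counts in PBS cells and 74.9, 96.9 and 121 after tBHP. In cNSF-HA cells it held 62.0, 73.3 and 79.6, and 113, 94.4 and 89.4 after tBHP. In fNSF-HA cells it held 72.6, 92.6 and 69.9, and 106, 124 and 124 after tBHP. The groups overlapped in PBS cells and were apart in both HA pre-incubations. By log2 difference IFIT3 stood at 0.21 after PBS (SE 0.17, limma adjusted p = 0.34), 0.46 after cNSF-HA (adjusted p = 0.0359) and 0.59 after fNSF-HA (adjusted p = 0.0108). The rise in cNSF-HA cells passed the test in 23 of 28 alternative settings and was lost without replicate 1 (0.36, adjusted p = 0.141) or replicate 2 (0.48, adjusted p = 0.0644) before tBHP, or without replicate 1 (0.36, adjusted p = 0.135) or 2 (0.49, adjusted p = 0.0546) after it. The rise in fNSF-HA cells was lost without replicate 3 before tBHP (0.52, adjusted p = 0.0516).

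IFIT1, which binds viral RNA that lacks the cap methylation of host messages, went the other way. It held 37.7, 42.9 and 32.9 normalized counts in PBS cells and 22.7, 19.6 and 20.8 after tBHP. In fNSF-HA cells it held 35.3, 37.4 and 32.6, and 21.9, 16.0 and 13.7 after tBHP. In both, the libraries after tBHP were lower without overlap. In cNSF-HA cells the values, 32.4, 24.4 and 43.4 against 29.5, 18.3 and 37.6 after tBHP, overlapped widely. IFIT1 differed by -0.81 on the log2 scale after PBS (SE 0.26, limma adjusted p = 0.0146), by -1.01 after fNSF-HA (adjusted p = 0.00437) and by -0.25 after cNSF-HA (adjusted p = 0.448). The fall in PBS cells missed the threshold without replicate 2 before tBHP (-0.72, adjusted p = 0.0604). The response in cNSF-HA cells exceeded that in PBS cells by 0.57 (95% interval -0.21 to 1.34) and that in fNSF-HA cells by 0.77 (-0.0051 to 1.54), and neither difference passed the test (adjusted p = 0.999 and 0.71).

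The unlike response within the IFIT genes is described by their ratios, which were formed after the values had been seen and are given without a test. The log2 ratio of IFIT2 over IFIT1 was -0.85 ± 0.43 (SD, n = 9) without tBHP and 0.62 ± 0.44 after it, higher by 1.83, 1.07 and 1.51 with PBS, cNSF-HA and fNSF-HA. The ratio of IFIT3 over IFIT1 was higher by 1.02, 0.70 and 1.61. The ratio of IFIT3 over IFIT2 differed by -0.81, -0.36 and 0.10, so its sign was not the same in the 3 pre-incubations. The upstream sequences of IFIT1 and IFIT3 shown above both hold the motif match TTTCACTTTC.

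**Figure D2:**
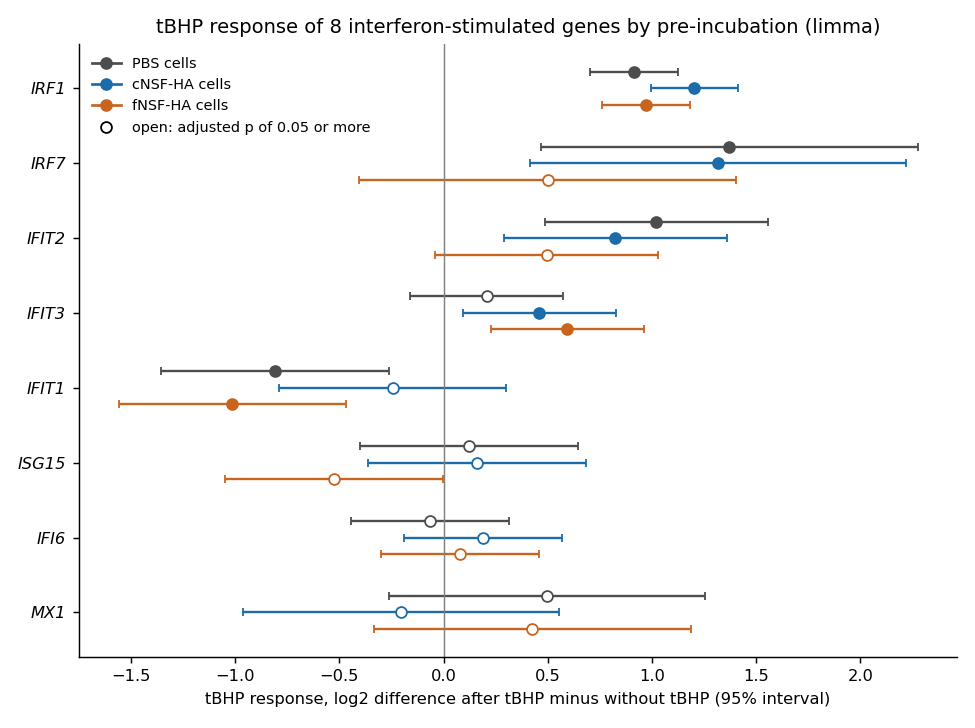
tBHP response (x axis, log2 difference between the groups after and without tBHP, with its 95% interval) of the 8 members tested in cells pre-incubated with PBS, cNSF-HA or fNSF-HA; filled points passed the test. IRF1 is filled in all 3, IFIT1 lies left of 0 and IFIT2 right of 0, and intervals of the 3 pre-incubations overlap for every member.

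ISG15, IFI6 and MX1, classical products of a full interferon response, passed the test in no pre-incubation. ISG15 (ENSG00000187608, chr1:1001138-1014540, plus strand) held 165, 146 and 141 normalized counts in PBS cells and 201, 150.2 and 146 after tBHP. In cNSF-HA cells it held 162, 176 and 160.2, and 149.7, 166 and 256 after tBHP. In fNSF-HA cells it held 153, 147 and 143, and 106, 61.7 and 163 after tBHP. The spread of ISG15 after tBHP (SD 0.488 on the log2 scale) was wider than without it (0.0846), with replicate 3 of cNSF-HA highest and replicate 2 of fNSF-HA lowest. Its log2 difference was 0.12 in PBS, 0.16 in cNSF-HA and -0.53 in fNSF-HA cells, the last with an adjusted p of 0.0993 in limma. That value was -0.17 without replicate 2 of fNSF-HA after tBHP (adjusted p = 0.503) and -0.86 without replicate 3, where it passed the test (adjusted p = 0.00358). With the trend of each library over GC content and length removed, described with the HA comparisons, it was -0.31 and passed the test (adjusted p = 0.0255). IFI6 (chr1:27666061-27672218, minus strand) lay between 52.1 and 91.5 in all 18 libraries, with log2 differences from -0.07 to 0.19. MX1 (chr21:41420304-41459214, plus strand) lay between 5.88 and 26.2, with log2 differences of 0.50 in PBS, -0.21 in cNSF-HA and 0.43 in fNSF-HA cells. The 3 libraries of PBS cells after tBHP held more MX1 (17.4 to 22.7) than those without (12.1 to 17.4), by under 0.1 at the nearest pair, and libraries of 63.8% of all genes did not overlap in this comparison.

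Of the interferon genes listed, all but IFNE were almost without reads, and IFNA1 was the only IFNA gene listed. Of 8 ligand genes, IFNB1, IFNK, IFNL1, IFNL2 and IFNG had no read in any library, and IFNA1 and IFNL3 had 1 read each over all 18. For a gene with 0 reads, up to 3 reads over the series are allowed by the count. IFNE, a type I interferon known from epithelia, was measured in every library (mean 152). It stood at 146 ± 27.0 (SD, n = 3) in PBS cells and 155 ± 36.8 after tBHP, and at 125 ± 15.5 and 183 ± 22.7 in fNSF-HA cells, where it rose by a log2 difference of 0.54 (limma adjusted p = 0.0193). The call was lost in 3 of 28 other settings (highest adjusted p = 0.0759), each of which left out 1 fNSF-HA library: replicate 1 or 3 before tBHP, or replicate 1 after it. In cNSF-HA cells it differed by 0.07 (adjusted p = 0.777).

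The lists of other pathway genes were written with earlier results of these data known. Their members are given by role. The background for each list is the share of all genes called, which was 51.1% after PBS, 50.8% after cNSF-HA and 41.9% after fNSF-HA. Lower counts of a list after fNSF-HA thus stand beside a lower share of all genes. Between the HA forms, the difference in response to tBHP was called for 0% of all genes. Among 5 receptor genes tested of 6, IFNAR1, a chain of the type I receptor, fell by a log2 difference of -0.62 in PBS cells and IL10RB, shared with the type III receptor, rose by 0.44. Both passed the test in the same direction in all 3 pre-incubations. Of the 7 genes of JAK-STAT signalling, 3 rose and 2 fell in PBS cells. STAT2 went from 793 ± 27.7 to 1514 ± 78.6 normalized counts (log2 difference 0.93, SE 0.069, limma adjusted p = 6.4e-09) and IRF9 from 30.3 ± 2.26 to 63.3 ± 3.30 (1.04, adjusted p = 0.0016). JAK2, a kinase of the receptors, fell by 0.54 on the log2 scale. STAT2 and IRF9 rose in the HA pre-incubations too, STAT2 by 0.73 with cNSF-HA and 0.96 with fNSF-HA and IRF9 by 0.95 and 1.03, each past the threshold.

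Among the IRF family, 6 of 9 genes were tested, IRF1 and IRF7 included. After PBS 5 rose and none fell, with a median log2 difference of 0.88. The count that rose was 6 with cNSF-HA and 4 with fNSF-HA. Of 9 sensors and adaptors tested, 4 rose and none fell in PBS cells. These were TICAM1 (0.58), an adaptor of Toll-like receptor 3, IFI16 (0.57), a sensor of DNA, TMEM173 (0.36), which encodes STING, and MAVS (0.27), the adaptor of the RNA sensors. With cNSF-HA 3 rose and 1 fell, and with fNSF-HA 2 rose and 1 fell. IFI16 and TMEM173 rose in both, and TRAF3, an adaptor of the pathway named after its values were seen, fell by 0.24 and 0.28 on the log2 scale.

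Other interferon-stimulated effectors moved both ways. Of 39 tested of 55, 9 rose and 16 fell after PBS, 9 rose and 15 fell after cNSF-HA, and 7 rose and 12 fell after fNSF-HA. The split depended on the test and scaling: edgeR on the recovered reads called 12 higher and 13 lower, 11 and 15, and 9 and 10, and quantile normalization 9 and 10 after fNSF-HA. Among the largest changes in PBS cells were those of PNPT1, a mitochondrial RNA-processing enzyme (-1.67, SE 0.080, limma adjusted p = 2.11e-11), and DDX60, a helicase (-1.26, adjusted p = 0.000724). IFI35 rose by 0.96 (adjusted p = 0.00498). PNPT1 and DDX60 passed the test in the same direction in both HA pre-incubations, whereas IFI35 differed by 0.51 and 0.25 there and did not pass.

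Of 11 negative regulators tested, 4 rose and 2 fell in PBS cells (5 and 1 with edgeR), 3 rose and 2 fell with cNSF-HA (4 and 1 with edgeR), and 2 rose with fNSF-HA. In PBS cells the phosphatase gene PTPN2 fell by 0.49 on the log2 scale, and IRF2BP2, a co-repressor (0.45), PTPN1, another phosphatase (0.43), and SOCS3, an inhibitor of JAK kinases (0.39), rose. PTPN2 did not pass the test with cNSF-HA (-0.28, limma adjusted p = 0.0714) or fNSF-HA (-0.27, adjusted p = 0.0917), nor SOCS3 with fNSF-HA (0.16, adjusted p = 0.243). Of 12 antigen presentation genes tested, in PBS cells 2 rose and 4 fell (4 and 4 with the trend of GC content and length removed). With cNSF-HA 5 rose and 3 fell, and with fNSF-HA 1 rose and 2 fell. PSME2, a subunit of a proteasome activator named after its values were seen, rose in all 3 by 0.27, 0.48 and 0.37. ERAP1 and ERAP2, which trim peptides, differed by -0.53 and -0.41, NLRC5, an activator of MHC class I genes, by -0.44, and PSMB8, an immunoproteasome subunit, by -0.44, all in PBS cells. The call of PSMB8 was lost in 6 alternative settings, and reads of HLA genes can be split between near-identical copies, so they are not named.

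**Figure D3:**
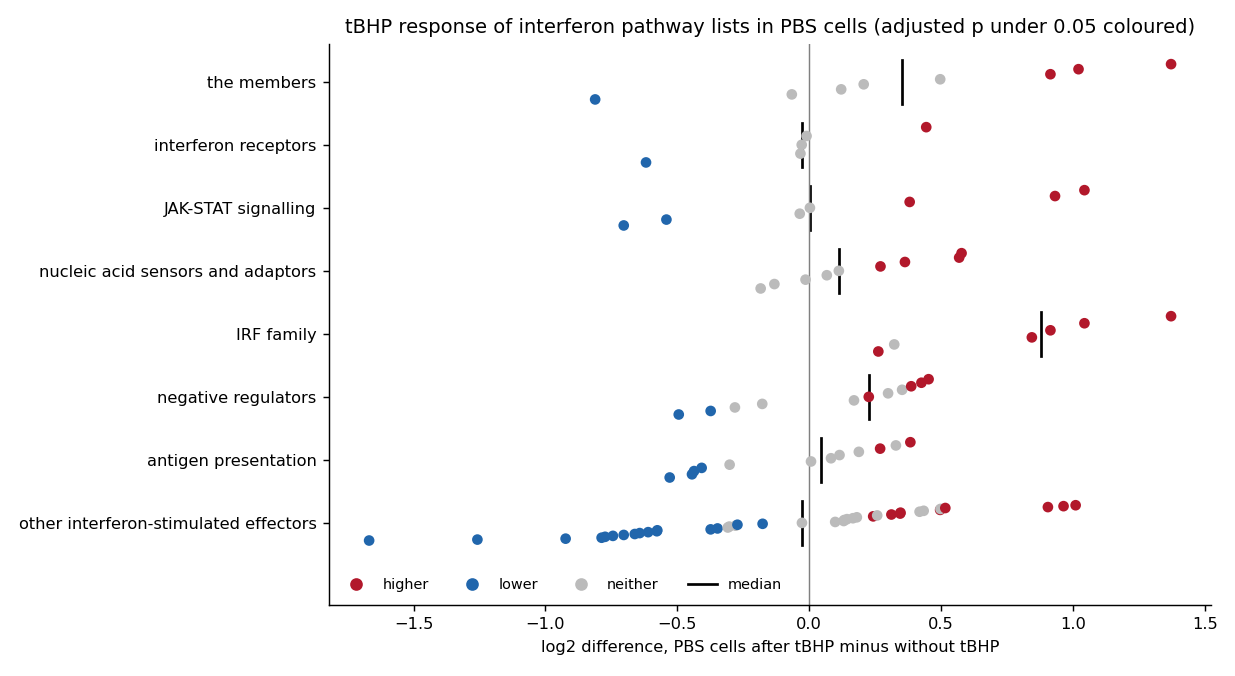
tBHP response in PBS cells (x axis, log2 difference) of each tested gene in the interferon pathway lists and the 8 members (rows), coloured where limma's adjusted p was under 0.05. The black bar is the median of the list; genes of most lists lie on both sides of 0, and those called in the IRF family all lie above it.

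The next comparisons asked whether HA changed the members, with cells of the same tBHP state compared. Without tBHP, none of the 8 members passed the test in any of the 3 comparisons, and at an unadjusted p under 0.05 there were 0 as well, where 12%, 7.71% and 20.6% of all genes lay in the 3 comparisons. The shares of all genes called were 0% for cNSF-HA against PBS, 0.139% for fNSF-HA against PBS and 6.88% for cNSF-HA against fNSF-HA (1.72% higher and 5.15% lower). IRF1 was lower in all 3 cNSF-HA libraries (163 to 202) than in all 3 PBS libraries (204 to 212), by a log2 difference of -0.17 (95% interval -0.35 to 0.022, limma adjusted p = 0.49), and libraries of 15.2% of all genes did not overlap in that comparison. ISG15 was higher in all 3 cNSF-HA libraries (160.2 to 176) than in the fNSF-HA libraries (143 to 153), by 0.17 (-0.035 to 0.37, adjusted p = 0.354), where 25% of all genes did not overlap. The intervals of MX1 were the widest, from -0.79 to 1.19 over these 3 comparisons, while those of IFI6 lay between -0.49 and 0.34 and those of IFIT3 between -0.52 and 0.21. The 2 comparisons with PBS share its libraries.

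In the pathway lists, genes that passed the test in the contrast of the 2 HA forms without tBHP were all lower in cNSF-HA cells, as were 5.15% of all genes tested. The log2 differences were -0.23 for JAK2, -0.14 for EIF2AK2 (the RNA-activated kinase PKR) and -0.14 for IFNAR1, with limma adjusted p-values of 0.0472, 0.0399 and 0.0351. None of these calls was made by edgeR, by DESeq2 or when each library's trend over GC content and length of transcripts was removed, where the differences were -0.13, -0.06 and -0.08.

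After tBHP no member passed the test in the 3 HA comparisons (0% of all genes were called in each), and none did for the difference between tBHP responses (0% in each). edgeR and DESeq2 also called 0 members in these 6 comparisons. At an unadjusted p under 0.05 the count was 0 for cNSF-HA against PBS, 1 for fNSF-HA against PBS and 2 for cNSF-HA against fNSF-HA, and 0 for the differences between responses. The shares of all genes at that level were 2.41%, 8.07% and 12.2%, and 4.06%, 6.88% and 3.89% for the differences between responses to tBHP (cNSF-HA less PBS, fNSF-HA less PBS, cNSF-HA less fNSF-HA). IRF7 was higher in all 3 cNSF-HA libraries (52.9 to 67.5) than in all 3 fNSF-HA libraries (7.45 to 49.0), by a log2 difference of 1.32 (95% interval 0.23 to 2.42, unadjusted p = 0.022, adjusted p = 0.376 in limma), and libraries of 13.4% of all genes did not overlap. ISG15 differed by 0.85 (0.17 to 1.54, unadjusted p = 0.0186, adjusted p = 0.376), with overlapping libraries. Against PBS cells, IRF7 differed by -1.10 in fNSF-HA cells (-2.19 to -0.0027, adjusted p = 0.557) and by 0.22 in cNSF-HA cells (-0.87 to 1.32, adjusted p = 0.995).

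The differences of IRF7 and ISG15 moved with single libraries. Without replicate 2 of fNSF-HA after tBHP, the difference between cNSF-HA and fNSF-HA was 0.56 for IRF7 and 0.49 for ISG15 (adjusted p = 0.973 for both in limma). Without replicate 3 of fNSF-HA it was 1.85 for IRF7 (adjusted p = 0.0412) and 1.19 for ISG15 (adjusted p = 0.0396), and both passed the test. Both genes have GC-rich transcripts, 66.8% for IRF7 and 63.4% for ISG15 against a median of 47.9% for all genes. In replicate 2 of fNSF-HA after tBHP, the tenth of genes with the highest GC content deviated by a median of -0.78 (log2) relative to the average over all 9 tBHP libraries. In replicate 3 of cNSF-HA the same genes deviated by 0.33. With the trend removed, the difference was 0.75 for IRF7 and 0.37 for ISG15 (adjusted p = 0.555 for both), and IRF7 in replicate 2 still deviated by -1.35, against -2.32 with the trend left in. For the other 6 members tested, removing the trend changed no call in the 3 responses to tBHP. The trend was taken within each tBHP state, so a GC-linked shift common to all libraries after tBHP was left in. Whether the responses to tBHP follow GC content was thus not tested.

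**Figure D4:**
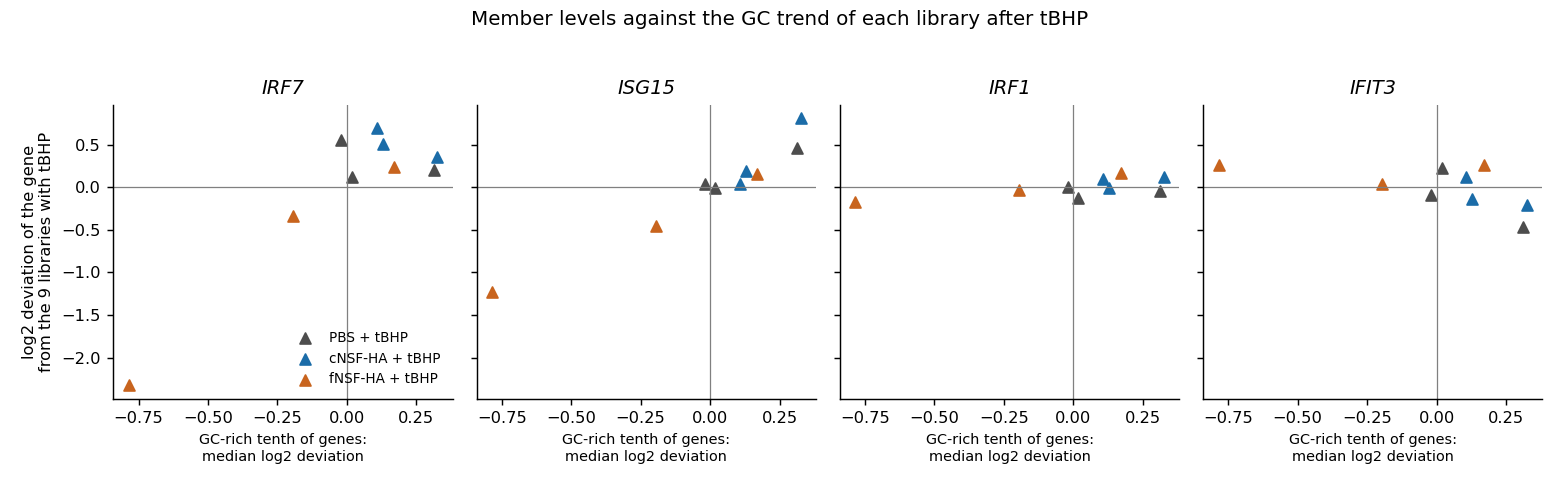
Deviation of IRF7, ISG15, IRF1 and IFIT3 (y axis, log2) in each of the 9 libraries after tBHP, against the median deviation of the tenth of genes with the highest GC content in that library (x axis, log2). Replicate 2 of fNSF-HA, at -0.78 on the x axis, is the lowest point for IRF7 and ISG15, while IRF1 and IFIT3 stay within 0.5 of 0.

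**Figure D5:**
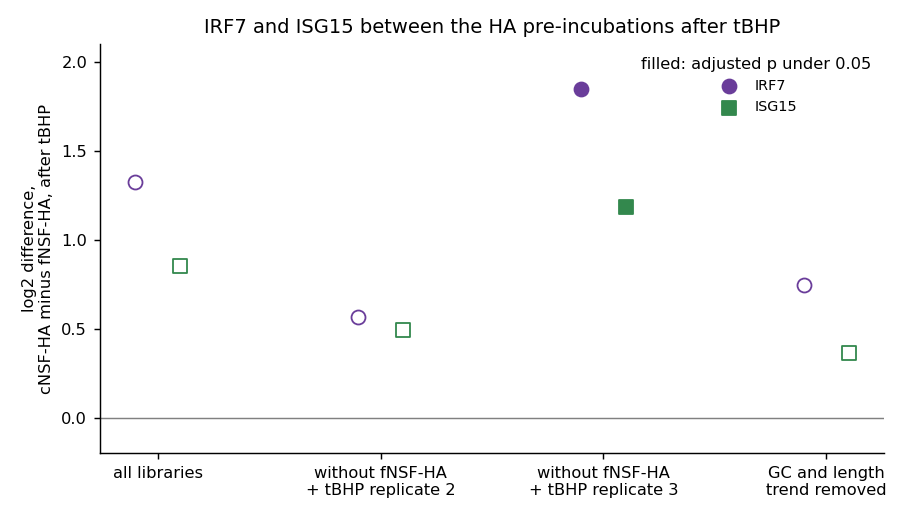
Difference of IRF7 (circles) and ISG15 (squares) after tBHP, cNSF-HA less fNSF-HA (y axis, log2) with all libraries, without replicate 2 or replicate 3 of fNSF-HA, and with the trend of GC content and length removed; filled symbols have an adjusted p under 0.05. Both genes are filled without replicate 3 alone, and stay above 0 in all 4 settings.

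The genes with profiles most like each member over the 18 libraries were named by Pearson correlation of the log2 values among genes with a mean of at least 50, as a description without a test, since the tBHP state and the trend of each library are shared. IRF1 was closest to PHF23 (r = 0.988), VCP (0.987) and TUBA4A (0.986), and IRF7 to FAM160B2 (0.951), MICALL2 (0.951) and TCF25 (0.945). ISG15 was closest to METRN (0.981), H1FX (0.977) and MRPL4 (0.972). IFIT1 had its nearest profiles in GLRX5 (0.858), AP001258.4 (0.847) and PXDC1 (0.84), IFIT2 in KREMEN1 (0.903), YY1AP1 (0.898) and EYA4 (0.896), and IFIT3 in ZNF136 (0.901), GCLC (0.869) and MGEA5 (0.869). IFI6 was nearest to RCCD1 (0.836), ACAA1 (0.836) and ASF1B (0.833), and MX1 to BTN3A3 (0.757), PPCDC (0.655) and BORCS6 (0.625).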

How the data were processed

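RNA of 18 libraries of IMR90 cells had been prepared with the TruSeq RNA V2 kit, which does not mark strand, and sequenced as single-end reads. The submitters' processing notes name Trimmomatic 0.32, STAR 2.5.2b, Subread 1.5.0-p3 with featureCounts, DESeq2 and build GRCh38.p7. The authors deposited 1 table of signal per gene, the read count divided by the DESeq2 size factor of the library. 100% of these values were whole reads once scaled, within 0.01 read, so reads were recovered. Of the deposited columns, 3 (a p-value, a q-value and a score that ranks genes by p) hold results of the authors and were not used.

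Groups came from the labels, without pairing of replicate numbers. Log2 values with a pseudocount of 1 went into limma 3.58.1 under R 4.3.3 (mean-variance trend, two-sided, Benjamini-Hochberg adjustment, threshold 0.05) for the 13686 genes with a mean of at least 10. Responses to tBHP and their differences were fitted over all 18 libraries, and HA comparisons over the 9 libraries of the same tBHP state. Alternatives were pseudocounts of 0.1 and 5, no filter, a minimum mean of 50, quantile normalization, edgeR 4.0.16 (quasi-likelihood test) and DESeq2 1.42.0 on recovered reads, a replicate block, other choices of libraries in the fit, each library left out, and removal of a trend over GC content and length of the transcript (splines, 5 degrees of freedom each, 12528 genes, GENCODE 29 transcripts). The trend was fitted to each library's deviation from the mean of its tBHP state. A shift shared by all libraries of a state was thus left in. The ratios within the IFIT genes were formed after the values had been seen.

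The members and lists were chosen with earlier results of these data known. All members are named, with up to 4 genes of each list with the largest change among those called in the tBHP response of PBS cells, STAT2, IRF9, ligand genes with a read, list genes called in an HA comparison, and the 3 nearest profiles of each member. A few list genes that this rule would name are counted but not reported here by name. Scripts were tested on simulated data. Depth was 20261103 to 26287660 reads. No replicate pair was identical.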

Additional observations from a re-analysis of the deposited data

How the results depend on the processing

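The direction of the 11 member responses called after tBHP did not change in any of their 302 values under other settings, and IRF1 stayed past the threshold in every setting. Among the 81 member differences with an unadjusted p of 0.05 or more, 62 of 1868 values changed sign, mostly in the HA comparisons and differences between responses. With a minimum mean of 50, which leaves 4 members to test, the members called after tBHP were 1 in PBS, 2 in cNSF-HA and 2 in fNSF-HA cells. With the trend of GC content and length removed, 5 were called in fNSF-HA cells: IRF7 rose (0.77) and ISG15 fell by 0.31 on the log2 scale. With single libraries left out, the counts ranged from 3 to 4 in PBS, from 1 to 4 in cNSF-HA and from 2 to 4 in fNSF-HA cells. Lowest in cNSF-HA cells were 1 without replicate 1 after tBHP and 2 without replicate 1 or 2 before it. For cNSF-HA against fNSF-HA after tBHP they ranged from 0 to 2 (IRF7 and ISG15 without replicate 3 of fNSF-HA), and for the other HA comparisons and differences between responses they stayed at 0. With no filter the calls of IFIT1 in PBS cells (adjusted p = 0.0522) and IFIT3 in cNSF-HA cells (0.0799) were lost. Among the responses to tBHP, sign changes of differences that had not been called came from single libraries left out, apart from ISG15 in cNSF-HA cells with the trend removed (-0.0093). After PBS they were ISG15 (-0.025 to 0.21), IFI6 (-0.13 to 0.045) and IFNE (-0.058 to 0.28, with -0.04 and -0.0034 without replicate 1 before and 3 after tBHP). After cNSF-HA they were IFIT1 (-0.47 to 0.033), ISG15 (-0.072 to 0.31) and IFNE (-0.015 to 0.20). After fNSF-HA they were IRF7 (-0.025 to 1.26), MX1 (-0.090 to 0.70), IFI6 (-0.063 to 0.29) and IFI35 (-0.040 to 0.46). The cause of these changes was not tested.

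Replicate numbers were shared by the groups in the labels. Deviations of libraries with the same number correlated by -0.12 to 0.33 (median 0.034), and those with other numbers by -0.43 to 0.42 (median -0.017). Of 18 libraries, 10 were closest to their own number. These values do not settle whether the numbers mark pairs, and the main test did not take them as pairs. With the replicate block, 4, 4 and 3 members were called after tBHP and 0 in the HA comparisons and differences between responses. Without tBHP, the block called 280 of all genes for cNSF-HA against PBS, where the main test called 0. It called 1439 for cNSF-HA against fNSF-HA, where the main test called 941. Counts of 6 to 64 reads limit what could be seen for MX1, IFIT1, IFIT2 and IRF7.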
